A study of Bos taurus with 30 samples.

Results

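The mature miRNAs miR-132 (bta-miR-132 in the table) and miR-212 (bta-miR-212) were followed across the hypothalamic arcuate nucleus (ARC) of 30 bull calves. The pair was chosen by name, with earlier results of these data known but by no rule on its values, and made up 2 of the 1030 mature bovine miRNAs in the deposited table, of which 863 had a read in at least 1 library and 476 passed a filter on low values. Both members passed that filter. To pass it, a miRNA needed the equivalent of 10 reads in a library of median depth, in 14 libraries or more.

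The libraries came from Holstein-Friesian bull calves fed either a high (HI) or a moderate (MOD) diet between the ages of 2 and 12 weeks, with 15 calves and 15 libraries per diet. HI calves received 1.5 kg of milk replacer in 10 L per day and concentrates ad libitum, for a target gain of 1.0 kg per day. MOD calves received 0.5 kg of milk replacer in 4 L and 0.5 kg of concentrates per day, for a target gain of 0.5 kg per day. All calves were intact males of 1 breed, no untreated group was included, and each library was made from the dissected ARC of 1 calf, so that each value is an average over all cell types of the dissection.

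MicroRNAs are short RNAs that pair through a seed near their 5′ end with mRNAs and lower the output of those mRNAs. miR-132 and miR-212 are cut from neighbouring hairpins of the same primary transcript and are known to share their seed, which was not checked on sequences here. Their transcription in neurons is switched on by the transcription factor CREB after synaptic activity or exposure to the neurotrophin BDNF, and a known target is ARHGAP32, a GTPase-activating protein that restrains dendrite growth. They are also induced by light in the suprachiasmatic nucleus, the circadian clock of the hypothalamus, and by GnRH in pituitary gonadotropes. The comparison of HI with MOD asked whether the plane of nutrition in early life was accompanied by a different level of the pair in the ARC.

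The libraries held between 6291376 and 21083250 reads on miRNAs. Depth fell into 21 shallower libraries with at most 8988039 reads, of 12 HI and 9 MOD calves, and 9 deeper ones with at least 17193358 reads, of 3 HI and 6 MOD calves. All 8 distinct neuron markers, among them miR-124a and miR-9-5p, were read in every library, and their summed level ran from 19239 to 89153 CPM (counts per 10 to the power of 6 reads, scaled as described for the members) in HI and from 25114 to 84414 CPM in MOD. In 9 libraries, of 5 HI and 4 MOD calves, the mean log2 level of the tested pituitary and epithelial markers (miR-375 and the miR-200 and miR-183 groups), here called the pituitary score, stood above a gap from 5.60 to 7.83. The summed level of these markers ranged from 356 to 91145 CPM in HI and from 157 to 77148 CPM in MOD. The class of the 9 lowest animal codes, whose boundary was taken from earlier work on these values, held 7 HI and 2 MOD calves.

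By reads, miR-132 was the more abundant member in every calf. Its level, in CPM over library sizes scaled by the TMM method, was 3424 ± 493 (SD, n = 30), which placed it 47th of the 863 detected miRNAs by mean level. miR-212 was at 274 ± 45.6 CPM (n = 30) and placed 147th. The reads behind these levels ranged from 15608 to 83898 per library for miR-132 and from 1416 to 6251 for miR-212, so that counting error was small for both. Without any scaling, miR-132 took 0.349% ± 0.0863 of all miRNA reads and miR-212 took 0.0278% ± 0.00661 (SD, n = 30).

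With TMM scaling, both members varied less between calves than the median miRNA. The coefficient of variation was 14.4% for miR-132 and 16.6% for miR-212, against a median of 25.5% over the 476 miRNAs tested. Among the other 475, 49 varied less than miR-132 and 91 varied less than miR-212. The highest library exceeded the lowest by 1.81-fold for miR-132 and by 2.15-fold for miR-212. As unscaled shares of reads, the coefficients were 24.7% and 23.8% against a median of 29.4%, with 163 and 150 miRNAs varying less, and the highest library exceeded the lowest by 2.61-fold and 2.80-fold. The small spread of the pair thus depends on the scaling.

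The level of miR-132 did not differ detectably between the diets. In HI calves the lowest level was 2423 CPM (calf A42931), the median 3361 CPM and the highest 4393 CPM (A93744). In MOD calves the lowest was 2554 CPM (A97821), the median 3370.4 CPM and the highest 4255 CPM (A47874). The diets overlapped almost throughout, with 28 of 30 libraries inside the range that both shared, 7 HI calves above the MOD median and 8 MOD calves above the HI median. Means were 3455 ± 533 CPM in HI and 3394 ± 466 CPM in MOD (SD, n = 15 each). On the log2(CPM + 0.25) scale, HI minus MOD was 0.02 (SE 0.08, 95% interval -0.14 to 0.19), with an adjusted p of 0.984 in limma after Benjamini-Hochberg adjustment over 476 miRNAs. The interval corresponds to 0.907-fold to 1.14-fold, and a two-sided permutation test of the same difference gave p = 0.778. A bulk level of this kind cannot tell fewer cells that make a miRNA from less of it per cell.

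miR-212 gave the same picture at a lower level. In HI calves it ran from 186 CPM (A27823) through a median of 290.1 CPM to 345 CPM (A81983). In MOD calves it ran from 164 CPM (A97821) through a median of 269 CPM to 353 CPM (A47825). The HI median was the higher, with 11 HI calves above the MOD median and 4 MOD calves above the HI median, but 28 of 30 libraries again lay within the shared range. Means were 278 ± 46.8 CPM in HI and 271 ± 45.6 CPM in MOD (SD, n = 15 each). HI minus MOD was 0.04 on the log2 scale (SE 0.10, 95% interval -0.16 to 0.23, adjusted p = 0.984 in limma), or 0.894-fold to 1.18-fold, and the permutation test gave p = 0.711. Over all calves, the lowest and the highest level of miR-132 were both in HI and those of miR-212 both in MOD, and A97821 was the lowest MOD calf for both members.

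**Figure D1:**
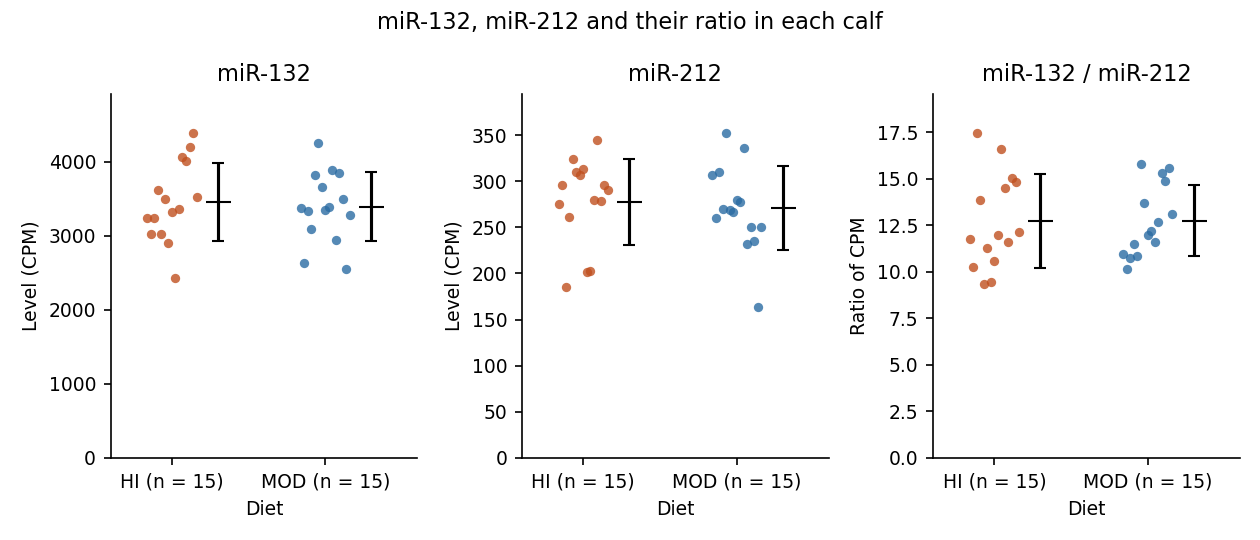
Level of miR-132 (left) and miR-212 (middle) in CPM, and the ratio of miR-132 to miR-212 (right), for each of 15 HI and 15 MOD calves, with 1 point per calf and the mean ± SD beside the points. The clouds of the 2 diets overlap in each panel, with 28 of 30 libraries in the shared range for each miRNA and 26 of 30 for the ratio. The ratio reached further in both directions in HI (9.34 to 17.5) than in MOD (10.1 to 15.8).

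Neither member was among the 21 miRNAs (4.41% of those tested) with an unadjusted p under 0.05, with 8 (1.68%) on the HI side and 13 (2.73%) on the MOD side. No miRNA passed an adjusted p of 0.1 together with a fold change of 1.5, so that the share called was 0%, and the smallest adjusted p was 0.256. The same criteria called 0 miRNAs with edgeR's quasi-likelihood test, which gave 16 at an unadjusted p under 0.05, and 1 with DESeq2, which was miR-2419-3p, both run on 29 libraries. The fitted differences of miR-132 and miR-212 were small beside those of other miRNAs. The median absolute log2 difference over all tested was 0.088, and 64 of the other 475 miRNAs had a smaller one than miR-132 and 106 a smaller one than miR-212. The 95% interval of both members lay within a fold change of 1.5 in either direction, as did that of 382 miRNAs (80.3%). Both fitted differences were above 0, as were those of 235 miRNAs (49.4%).

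Within classes of libraries the direction was not uniform. In the 9 deeper libraries, HI minus MOD of miR-132 was -0.23 (3 HI, 6 MOD, exact permutation p = 0.262), and in the 21 shallower ones it was 0.12 (exact permutation p = 0.140). miR-212 followed with -0.23 in the deeper (exact permutation p = 0.441) and 0.10 in the shallower libraries (exact permutation p = 0.256). The difference between depth classes was tested directly as an interaction in limma. It was -0.35 for miR-132 (SE 0.18, unadjusted p = 0.0597) and -0.33 for miR-212 (SE 0.22, unadjusted p = 0.135), with adjusted p-values near 1, and 3 of the 476 miRNAs had an unadjusted interaction p under 0.05.

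The diet difference of the pair was also read within classes of pituitary score and animal code. Among the 21 calves of low pituitary score, HI minus MOD was 0.05 for miR-132 (permutation p = 0.548) and 0.02 for miR-212 (permutation p = 0.887). Among the 9 of high score it was -0.01 and 0.08 (exact permutation p = 0.944 and 0.667). In the 9 lowest animal codes it was 0.11 for miR-132 and -0.03 for miR-212 (exact permutation p = 0.417 and 0.917), and in the other 21 it was 0.07 and 0.04 (exact permutation p = 0.487 and 0.761). With the code class as a term in limma, the difference of miR-132 moved from 0.02 to 0.08 (SE 0.08, unadjusted p = 0.325) and that of miR-212 from 0.04 to 0.02 (SE 0.10, unadjusted p = 0.841), with adjusted p-values near 1.

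The levels themselves were also compared between these classes, irrespective of diet. miR-132 was at 3245 ± 612 CPM in the 9 libraries of high pituitary score and at 3501 ± 427 CPM in the other 21, and miR-212 was at 274 ± 33.97 and 274 ± 50.5 CPM. Between deeper and shallower libraries, miR-132 was at 3450.1 ± 613 and 3413 ± 449 CPM, and miR-212 at 261 ± 62.9 and 280.04 ± 36.2 CPM. None of these comparisons, nor those of the ratio of the pair, had an adjusted p under 0.320 in exact permutation tests with adjustment over 6. In the 9 lowest codes, a class found from the values and therefore given without a test, miR-132 was at 3174 ± 308 CPM against 3532 ± 524 CPM in the other 21, and miR-212 at 281 ± 42.1 against 271 ± 47.7 CPM.

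The ratio of miR-132 to miR-212 within a library does not depend on how libraries are scaled. It compares reads of the counted mature miRNA of each hairpin, and whether both are read with equal efficiency was not tested. It was 12.7 ± 2.20 over all calves (SD, n = 30). In HI calves the ratio ran from 9.34 (A27864) through a median of 12.0 to 17.5 (A27823), and in MOD calves from 10.1 (A21978) through 12.2 to 15.8 (A47874). The means were 12.7 ± 2.53 in HI and 12.7 ± 1.91 in MOD (SD, n = 15 each), and HI minus MOD of the log2 ratio was -0.01 (95% interval -0.20 to 0.17, permutation p = 0.878). The ratio thus gave no detectable diet difference between the members, and 26 of 30 libraries lay in the range shared by the diets.

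The SD of the ratio on the log2 scale was 0.25 over the 30 calves, and the SD from counting alone was 0.031 in the median library and at most 0.039. With 1 library per calf, the spread between calves and that of library preparation cannot be told apart. The extremes are separate calves on the same diet, A27864 and A27823, both HI. A27823 had its high ratio with the lowest HI level of miR-212. The ratio was 11.6 ± 2.59 in the 9 lowest codes and 13.2 ± 1.89 in the other 21, and what part the code class has in the spread was not tested.

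**Figure D2:**
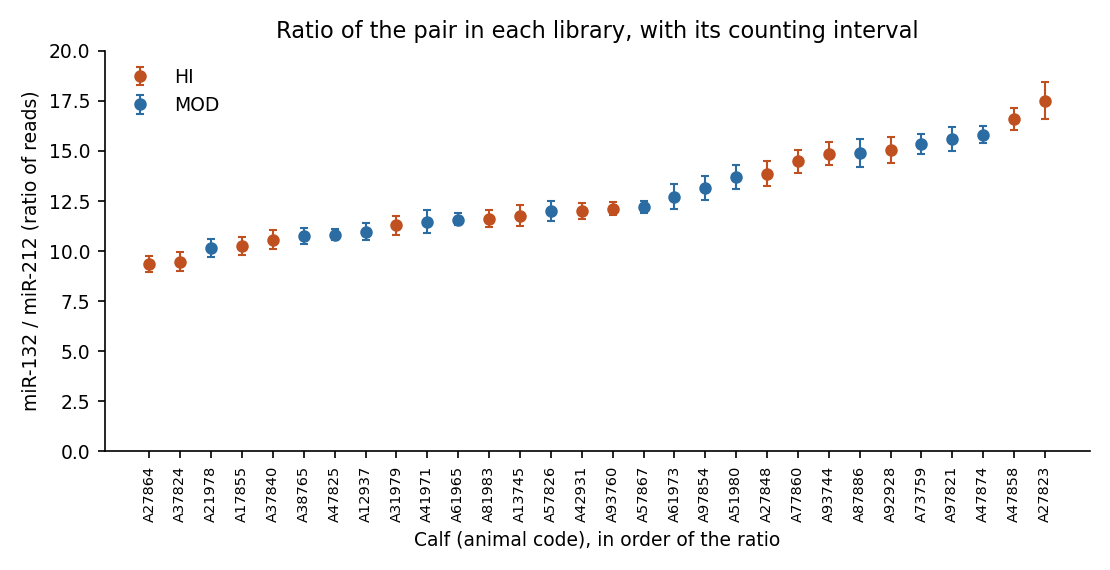
Ratio of miR-132 to miR-212 reads in each of the 30 libraries, ordered from the lowest to the highest and coloured by diet, with bars for the 95% counting interval. The bars are short beside the spread from 9.34 to 17.5, and HI and MOD calves are mixed along the order.

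How far the members varied together across calves depended on the scaling. With TMM factors, Pearson's r between their log2 levels was 0.470 (n = 30, permutation p = 0.00898, adjusted p = 0.0449 over 5 relations), and Spearman's rho was 0.336 (permutation p = 0.0700, adjusted p = 0.175). With library size alone as the scaling, r was 0.775. Under TMM factors and without A97821 and A42931, the calves farthest from the median of miR-132, r was 0.212 (n = 28, permutation p = 0.279). The relation was thus weaker without these calves. Leaving out the extremes of a member also narrows its range, and leaving out other calves was not tried for r. Pearson's r was 0.765 in the 9 deeper libraries (exact permutation p = 0.0172) but 0.188 in the 21 shallower ones (permutation p = 0.417). By code, given without a test, it was -0.06 in the 9 lowest and 0.671 in the other 21, which hold both A97821 and A42931. By diet it was 0.350 in HI (n = 15, permutation p = 0.200) and 0.604 in MOD (n = 15, permutation p = 0.0174), and by pituitary score 0.505 in the 9 high and 0.538 in the 21 low libraries (exact permutation p = 0.169 and permutation p = 0.0122). Whether these values differ from each other was not tested.

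**Figure D3:**
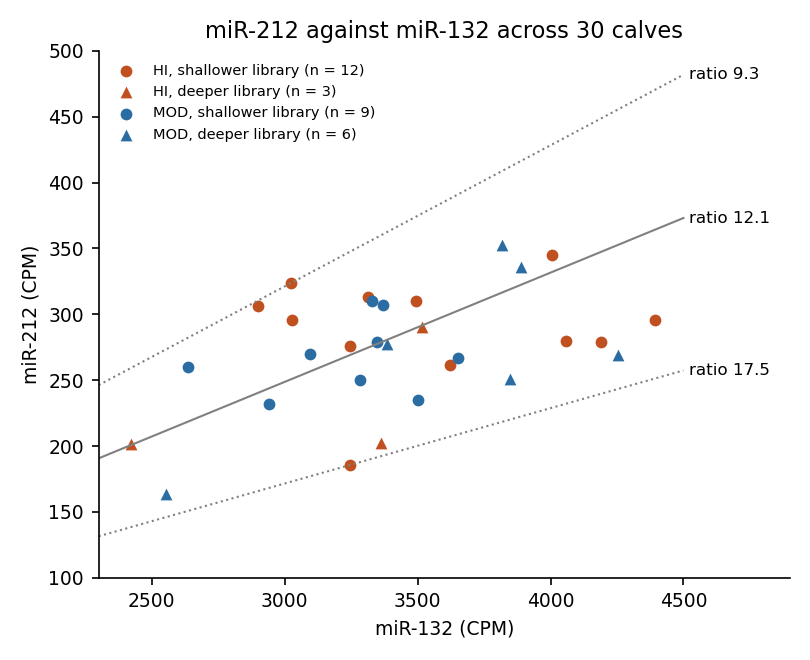
Level of miR-212 against miR-132 in CPM for each calf, coloured by diet, with circles for shallower and triangles for deeper libraries. Grey lines mark the lowest, median and highest ratio of the pair, and the points follow no single line. The lowest calf on each axis has a deeper library.

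Set beside other miRNAs, each member was not the closest match of the other. When the other 475 tested miRNAs were ranked by Pearson's r of log2(CPM + 0.25) over the 30 libraries, miR-212 placed 21st for miR-132, and miR-132 placed 27th for miR-212. These places depended on the setting, at 11th and 31st in the 21 calves of low pituitary score and at 57th and 14th with library size alone as the scaling. As a description, 445 pairs of tested miRNAs from different hairpins within 10 kb of each other in the RefSeq gene table, miR-132 with miR-212 included, had a median r of 0.531, and 255 of them had a higher r than miR-132 with miR-212. Of these pairs, 341 came from a single cluster of 45 miRNAs. Only the 402 tested miRNAs with a single gene in that table entered, so a group of 2 can be part of a larger cluster. In the 19 groups of exactly 2 such miRNAs, to which miR-132 and miR-212 belong, the median r was 0.733 and 14 had a higher r. Among the groups were miR-182 with miR-183 and miR-200a with miR-429, pituitary markers at r = 0.99 each. Of the same marker groups, miR-96 and miR-200b were not tested. The SD of the log2 ratio within these 19 had a median of 0.27, close to the 0.25 of miR-132 and miR-212, and 7 had a lower one. All pairs share libraries and scaling, and over all tested pairs the median r was 0.01.

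The miRNAs whose levels ran closest to miR-132 were miR-499 (r = 0.67, n = 30), miR-296-5p (0.61), miR-29c (0.57), miR-153 (0.56) and miR-331-3p (0.55). Of these, miR-153 is a neuron-enriched miRNA and miR-499 is best known from an intron of a myosin gene of striated muscle. Lowest were miR-30a-5p (-0.62), miR-378c (-0.60) and miR-155 (-0.60), the last an inflammation-induced miRNA of leukocytes and microglia. On the leukocyte list, r with miR-132 was split, at -0.44 for miR-223, -0.17 for miR-142-5p, -0.12 for miR-142-3p and 0.36 for miR-150. In the 21 calves of low pituitary score, the r of these 8 kept their sign, at 0.66 for miR-499 and 0.34 for miR-296-5p. These calves are among the 30 used to pick the 8, so this is no independent check. With library size alone as the scaling, miR-155 stayed at -0.52 whereas miR-30a-5p moved to -0.08 and miR-378c to 0.17.

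miR-212 ran closest to miR-323b-3p (r = 0.80, n = 30), miR-181c (0.79), miR-1247-5p (0.61), miR-34b (0.61) and miR-34c (0.61). miR-34b and miR-34c come from 1 transcript of multiciliated cells such as ependyma, and in the 21 calves of low pituitary score their r with miR-212 was 0.77 for each. They varied widely, from 4.78 to 267 CPM for miR-34b and from 54.1 to 4287 CPM for miR-34c. Other markers on the choroid plexus and ependyma list had low r with miR-212 over the 30 calves, at 0.13 for miR-449a, 0.11 for miR-449b, 0.07 for miR-449c, 0.07 for miR-211 and 0.01 for miR-204. Lowest were let-7a-3p (-0.67), miR-93 (-0.67) and miR-20a (-0.62), the last 2 from paralogous clusters expressed in dividing cells. With library size alone, the r of these 3 moved to 0.21, -0.03 and 0.03, so that their sign or size depends on the scaling. None of the 5 closest miRNAs of miR-132 was among the 5 closest of miR-212, which is likely for lists this short out of 475. miR-153, among the 5 closest of miR-132, had an r of 0.48 with miR-212, beside 0.47 for miR-132 itself.

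**Figure D4:**
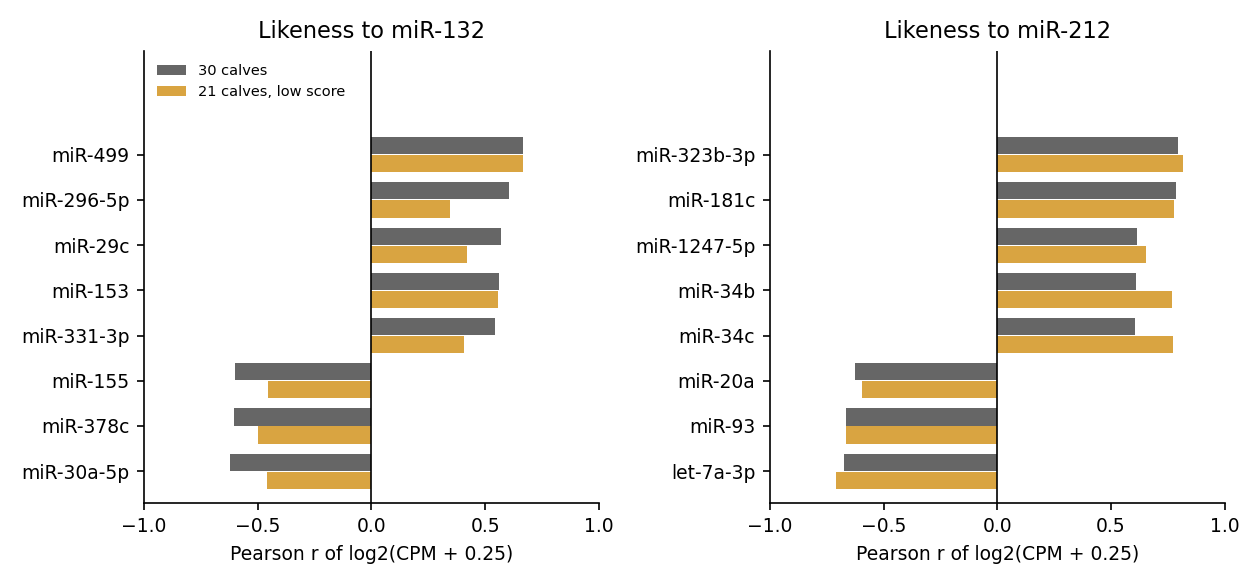
Pearson's r of log2(CPM + 0.25) with miR-132 (left) and miR-212 (right) for the 5 miRNAs of highest and the 3 of lowest r, over 30 calves (grey) and over the 21 calves of low pituitary score (yellow). Each panel shows the extremes of 475 miRNAs over the 30 calves. The bars keep their direction in the 21 calves, which are among those 30 and so give no independent check.

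The pair was also compared with a neuron score, which is the mean log2 level of the 8 distinct neuron markers tested. miR-132 gave r = 0.370 with this score (n = 30, permutation p = 0.04355, adjusted p = 0.109 over 5 relations) and rho = 0.464 (permutation p = 0.0103, adjusted p = 0.0516), which did not pass 0.05 after adjustment. Without the 2 calves farthest from the median of miR-132, r was 0.490 (n = 28, permutation p = 0.00755). It was 0.478 in the 21 shallower libraries and 0.225 in the 9 deeper ones (permutation p = 0.0283 and exact permutation p = 0.566). It was 0.403 in the 9 lowest codes and 0.238 in the other 21, and 0.232 in the 9 libraries of high pituitary score against 0.398 in the other 21 (exact permutation p = 0.547 and permutation p = 0.0749). miR-212 gave r = -0.06 and rho = 0.08 with the same score (n = 30, permutation p = 0.762 and 0.689, adjusted p = 0.762 and 0.733), and r = -0.06 without its 2 farthest calves. By pituitary score it was -0.462 in the 9 high and 0.268 in the 21 low libraries (exact permutation p = 0.213 and permutation p = 0.238). For single markers, r with miR-132 was highest for miR-153 (0.56), miR-129-3p (0.46) and miR-137 (0.40) and lowest for miR-9-5p (0.03). With miR-212 the markers split, with r of 0.60 for miR-129-5p, 0.48 for miR-153, 0.43 for miR-129-3p and 0.10 for miR-137, but -0.23 for miR-124a, -0.30 for miR-138, -0.33 for miR-9-5p and -0.37 for miR-128.

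With the pituitary score, r over the 30 libraries was -0.229 for miR-132 (permutation p = 0.222, adjusted p = 0.370 over 5 relations). For miR-212 it was 0.085 (permutation p = 0.664, adjusted p = 0.762). That score separates the libraries into 2 clusters, so r is also given within each. In the 9 libraries of high score it was 0.220 for miR-132 and 0.387 for miR-212 (exact permutation p = 0.567 and 0.317). In the 21 of low score it was -0.07 and 0.13 (permutation p = 0.775 and 0.587). No relation of either member with the pituitary markers was detectable at these numbers of calves. As a description over the 30 libraries, r of miR-212 with the oligodendrocyte markers was -0.58 for miR-219-5p and miR-338, -0.59 for miR-219-3p and -0.02 for miR-219, a row near 1 CPM that was not tested. With the endothelial markers it was -0.57 for miR-126-3p and -0.24 for the more abundant miR-126-5p. The erythroid markers split: r with miR-132 and miR-212 was -0.47 and -0.48 for miR-451 and -0.51 and -0.49 for miR-144, but 0.09 and 0.36 for miR-486, the most abundant of them. All these r are under TMM scaling only. Negative r of like size with miR-212 did not hold with library size alone, at -0.03 for miR-93, 0.03 for miR-20a and 0.21 for let-7a-3p.

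Other miRNAs regulated by neuronal activity or acting at synapses were also read for diet. Of the 10 on this list, 9 were tested, and none passed an unadjusted p of 0.05 in either direction in limma, against 4.41% of all tested. Their median log2 difference was -0.02, beside -0.00 over all tested, with 4 above 0. miR-134, which represses LIMK1 in dendritic spines, was at 57.3 ± 10.5 CPM in HI and 54.2 ± 7.70 CPM in MOD, a log2 difference of 0.07 (SE 0.09). miR-138, which represses the depalmitoylating enzyme LYPLA1 at synapses, had the largest fitted difference of the list at -0.38 (SE 0.27, adjusted p = 0.911 in limma), with 1596 ± 827 CPM in HI and 1893 ± 653 CPM in MOD (SD, n = 15 each). miR-188 had the smallest unadjusted p of the list at 0.0989, with 38.8 ± 11.3 CPM in HI and 44.5 ± 8.07 CPM in MOD, a log2 difference of -0.22 (SE 0.13, adjusted p = 0.911 in limma). The SE of the pair, 0.08 and 0.10, was below the median SE of 0.13 over all tested under TMM scaling, but with library size alone as the scaling it was 0.134 for miR-132 and 0.135 for miR-212.

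The neuron markers gave no call for diet either. None of the 8 distinct ones passed an unadjusted p of 0.05, against 4.41% of all tested. Their median log2 difference was -0.11, beside -0.00 over all tested, and 1 was above 0, against 49.4% of all tested. Their fitted values ran from -0.38 for miR-138 to 0.08 for miR-129-5p.

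In the RefSeq gene table, MIR132 and MIR212 lie beside each other between the protein genes OVCA2 and DPH1 on one side and HIC1 on the other. Other miRNA genes within 1 Mb of them were MIR22, MIR2336, MIR3600, MIR2337 and MIR12041. miR-22-3p, an abundant miRNA of most tissues, was at 17562 ± 2383 CPM (SD, n = 30), with a log2 difference of 0.12 (SE 0.07, unadjusted p = 0.0751, adjusted p = 0.911 in limma). Its r was -0.35 with miR-132 and -0.28 with miR-212. miR-22-5p was at 54.9 ± 11.8 CPM and miR-2336 at 20.6 ± 5.93 CPM, with log2 differences of -0.04 and 0.11 (adjusted p = 0.984 and 0.982 in limma). miR-12041 was read in 15 libraries and not tested, and miR-3600 and miR-2337 were listed at 0 in all libraries. miR-22-5p had an r of 0.22 with miR-132 and -0.42 with miR-212, and miR-2336 had -0.24 and 0.10. Under TMM scaling, none of the 3 tested neighbours thus had a positive r with both members.

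**Figure D5:**
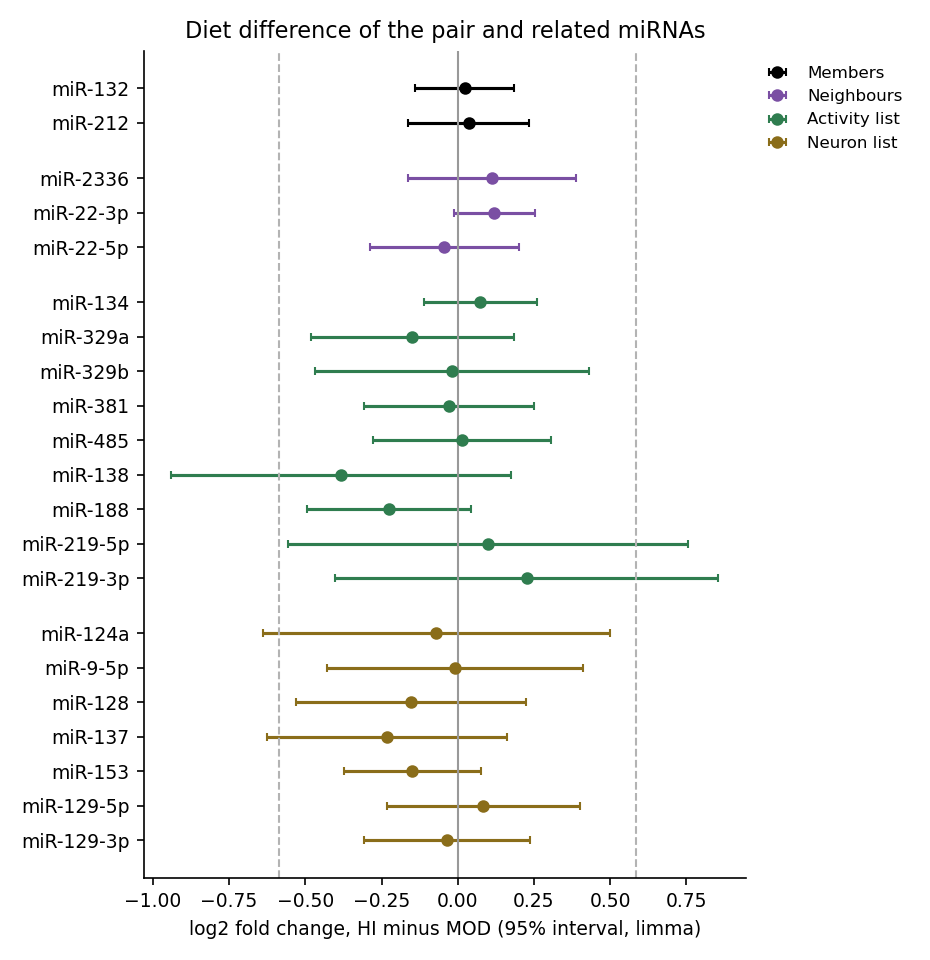
Fitted log2 difference, HI minus MOD, with its 95% interval in limma, for miR-132 and miR-212, their tested neighbours, the activity list and the neuron list, with miR-138 drawn once and miRNAs of identical values drawn once. Dashed lines mark a fold change of 1.5 in either direction, and the intervals of the pair lie inside them at -0.14 to 0.19 and -0.16 to 0.23.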

How the data were processed

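Small RNA was sequenced from the ARC of 30 calves, 1 library per calf, so that replicates are separate calves. As far as the paper's methods state, the authors trimmed reads, kept those of 15 to 28 bases, removed other short RNA classes and used miRDeep2, which calls Bowtie, to count reads of annotated bovine miRNAs on the ARS-UCD1.2 genome. The submitters' processing notes name FastQC 0.11.8, cutadapt 2.6, R 3.4 and edgeR 3.5. The signal values deposited by the authors were decimals of CPM form over TMM-scaled library sizes, although their source calls them counts, and recomputed TMM factors differed by at most 0.586%. Reads per library were recovered from the step worth 1 read. Of values up to 200 reads, 94.5% to 97.9% were whole within 0.02 reads, and the values of both members were whole in every library. No other column of per-sample values was present (0 columns).

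Diet was taken from the labels. The fit was limma (lmFit, eBayes with trend) on log2(CPM + 0.25) of the 476 miRNAs kept by filterByExpr, with Benjamini-Hochberg adjustment. Fold changes on this scale understate those of low miRNAs. The study used edgeR on counts, so edgeR and DESeq2 were run as alternatives on recovered reads of 29 libraries. The library of A31979 was left out of them because 94.8% of its values up to 20 reads were whole within 0.1 reads, under the 95% required (95.6% to 100% in the others). For single values, permutation tests were two-sided and drew 100000 resamples unless named as exact. Depth classes lie on either side of the widest gap in total reads. The 95% counting intervals cover counting error only. Identical rows (miR-124a and miR-124b, miR-129 and miR-129-5p) were counted once. RefSeq genes of another assembly than the authors' were used for names and neighbours only.

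The members, lists, code class and tests were chosen with earlier results of these data known. Named miRNAs were the members, the 5 of highest and 3 of lowest r with each, miRNA genes within 1 Mb, and from each list the one of smallest p and those whose role is described. Further list members are named by their r with the pair, chosen after their values were seen. Where library size is not named, r is under TMM scaling. The marker lists were for neurons, pituitary, oligodendrocytes, endothelium, smooth muscle, choroid plexus and ependyma, erythroid cells, leukocytes and liver. Alternatives covered the test, scaling, pseudocount, filter, covariates and libraries. The interaction with depth, the unscaled spread and the use of 29 libraries were chosen after seeing the data. Scripts were tested on simulated data. Software was R 4.3.3, limma 3.58.1, edgeR 4.0.16, DESeq2 1.42.0, Python 3.11.15 and scipy 1.17.1.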

Additional observations from a re-analysis of the deposited data

How the results depend on the processing

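The diet differences of miR-132 and miR-212 kept their sign under 11 of 12 alternatives each and passed the threshold under none of them, with adjusted p of at least 0.848 and 0.933. With library size only, which moved the median of all miRNAs by -0.04, they were -0.0205 and -0.0066. The count of miRNAs called was 1 instead of 0 with DESeq2 and with the neuron score as a term, miR-2419-3p each time. HI minus MOD of the log2 ratio was 0.0185 in the shallower libraries, 0.0020 in the deeper and 0.0304 without the libraries of high pituitary score.

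Leaving out each calf in turn gave -0.0059 to 0.0578 for miR-132, -0.0137 to 0.0763 for miR-212, -0.0486 to 0.0160 for the ratio and 0 to 1 for the count. The sign turned without A93744, A21978 or A97821 for miR-132, without A97821 for miR-212, and without A17855, A27864, A37824, A37840, A47874, A73759, A87886 or A97821 for the ratio. The count was 1 without A77860 or A97854.

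The correlation of the pair was 0.188 in the shallower libraries, 0.505 in those of high pituitary score, 0.350 in HI, 0.212 without 2 calves and -0.0563 in the lowest codes, and 0.775 with library size only. That of miR-132 with the neuron score was 0.225 in the deeper libraries, 0.403 in the lowest codes, 0.238 in the other codes, 0.232 and 0.398 at high and low pituitary score, 0.470 in HI and 0.264 in MOD. For miR-212 it was 0.182 in the deeper libraries, 0.0992 in the other codes, -0.462 and 0.268 at high and low pituitary score and 0.0231 in MOD. With the pituitary score, miR-132 gave 0.220 at high score, and miR-212 gave -0.0793 in the deeper libraries, -0.0882 in the other codes and -0.0850 without 2 calves. The cause of these changes was not tested.

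No paired analysis was possible because each calf had 1 diet and the labels name no pairs of calves between the diets. Sire, farm, bodyweight and age, which the paper balanced between the diets, did not enter the fits. Depth does not limit the members, which had 1416 reads or more.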

Other observations

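Markers of other cell types of the dissection were read for diet beside the pair. On the remaining lists, 1 miRNA passed an unadjusted p of 0.05 in limma, where 4.41% of all tested did, so that this count is near the background. It was miR-145 of smooth muscle, at 572 ± 194 CPM in HI and 789 ± 252 CPM in MOD (SD, n = 15 each), a log2 difference of -0.46 (SE 0.16, unadjusted p = 0.00797, adjusted p = 0.878). Its r over the 30 libraries was -0.19 with miR-132 and -0.26 with miR-212, and that of miR-143, the other smooth muscle marker, was -0.47 and -0.16. The other tested markers of smooth muscle (1), pituitary (7), oligodendrocytes (3), endothelium (2), choroid plexus and ependyma (7), erythroid cells (3) and leukocytes (4) did not pass it. Above 0 were 7 of 7 pituitary, 3 of 3 oligodendrocyte and 3 of 3 erythroid markers, against 49.4% of all tested. The same held for 2 of 7 of choroid plexus and ependyma, 1 of 4 of leukocytes and 0 of endothelium and smooth muscle. These directions were not tested. The smallest unadjusted p of those lists belonged to miR-200a (log2 difference 0.89, SE 1.29), miR-219-3p (0.23, SE 0.31), miR-126-3p (-0.09, SE 0.14), miR-449b (-0.45, SE 0.45), miR-486 (0.03, SE 0.08) and miR-150 (-0.44, SE 0.24). The liver marker miR-122 was not tested and ranged from 0 to 14.2 CPM.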
